A study of Mus musculus with 12 samples.

Results

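The chemokines, interleukins, colony-stimulating factors and tumour necrosis factor that immune cells secrete are described here in mouse myeloid cells with and without the histone methyltransferase gene Ezh2. Members were the array's transcript clusters (one summary value for a gene's probes) that were annotated to exactly 1 symbol of the forms Ccl, Cxcl or Il with a number, Tnf, or Csf1 to Csf3. Receptors were left out. This rule gave 67 genes of the 30142 genes with a cluster of their own, each with 1 cluster: 19 Ccl genes, 13 Cxcl genes, 31 interleukins, 3 colony-stimulating factors and Tnf. The rule used names only, not measured values.

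RNA was measured on 12 arrays in 6 groups of 2, all from HoxB8-ER cells of C57BL/6 background, which are bone marrow cells immortalised by HOXB8 joined to the hormone-binding part of the estrogen receptor. Undifferentiated wild-type and undifferentiated Ezh2-null (Ezh2-/-) cells were grown with 0.5 µM estradiol, which holds them at a promyelocyte-like stage. Neutrophils were made from each genotype over 6 days without estradiol, and wild-type neutrophils were also made with GSK343, an inhibitor of the EZH2 enzyme, or with its vehicle. For GSK343 the labels of the samples state 0.5 µM over 9 days, whereas 1 µM stands in the description of the series, and the dose is therefore uncertain.

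Bone marrow of littermates gave both genotypes. The number of cell lines, and whether the arrays of a group came from separate cultures, are not given in the labels, so genotype and line cannot be told apart. The p-values therefore reflect array-to-array spread alone, and that spread may be technical. Each group is a population grown in culture from immortalised progenitors and was not sorted, as far as the labels say.

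Chemokines are small secreted proteins that draw leukocytes along a gradient by binding G protein-coupled receptors: Cxcr2 ligands such as Cxcl2 draw neutrophils, and Ccr2 ligands such as Ccl2 draw monocytes. Interleukin 1, interleukin 6 and Tnf are the classical inflammatory cytokines, and colony-stimulating factors govern the growth and survival of myeloid cells. Mature neutrophils store granule proteins but also transcribe chemokine and cytokine genes, many of them under NF-kappaB.

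The deposited values are log2 signals. On the 8 genotype arrays the cluster medians ran from 4.54 to 4.65, and on the 4 drug arrays from 3.88 to 3.96, so the 2 sets look separately normalised and levels were compared within each set. Background was the 95th percentile over 23 antigenomic probe sets of each array and ran from 4.83 to 5.79. Arrays of a group correlated at 0.984 to 0.995 across clusters. All 10 neutrophil markers listed, from S100a8 to Ly6g, lay above background on every neutrophil array, as the stage labels state. Ezh2 itself was 11.57 and 11.65 in undifferentiated wild-type cells and 9.10 and 9.44 in undifferentiated Ezh2-null cells, but 8.31 and 8.34 in wild-type neutrophils and 8.74 and 9.02 in the neutrophils of the Ezh2-null line. In neutrophils the Ezh2 level was thus not lower under the Ezh2-null label than in the wild type, and so does not bear out the label. Both neutrophil arrays of the Ezh2-null line also lay below both undifferentiated arrays of that line. The cluster covers the whole gene, and the deleted exons are not named in the labels. The neutrophil group of that line is called "neutrophils labelled Ezh2-null", and each direction drawn from it rests on the label.

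Promoters are shown for 5 of the 7 members called higher in the neutrophils labelled Ezh2-null than in wild-type neutrophils. Ccl2 and Il4, the other two, are named only. Each is the 250 bases before the RefSeq start (assembly GRCm38.p6), written 5′ to 3′ on the gene's own strand, with motif matches in capitals. Il6 lies at chr5:30012864-30013113 on the plus strand, Cxcl2 at chr5:90903649-90903898 (plus), Ccl12 at chr11:82101595-82101844 (plus), Csf1 at chr3:107760470-107760719 (minus) and Ccl17 at chr8:94810203-94810452 (plus).
Il6: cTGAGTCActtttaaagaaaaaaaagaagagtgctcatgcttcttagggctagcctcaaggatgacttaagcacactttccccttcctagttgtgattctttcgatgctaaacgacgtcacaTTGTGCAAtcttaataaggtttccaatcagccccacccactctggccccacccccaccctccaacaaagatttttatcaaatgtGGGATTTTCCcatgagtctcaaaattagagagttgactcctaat
Cxcl2: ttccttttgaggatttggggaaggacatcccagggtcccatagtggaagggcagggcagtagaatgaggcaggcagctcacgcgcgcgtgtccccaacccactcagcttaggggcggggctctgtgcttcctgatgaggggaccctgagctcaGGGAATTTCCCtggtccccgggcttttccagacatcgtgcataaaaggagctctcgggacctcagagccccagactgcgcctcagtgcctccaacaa
Ccl12: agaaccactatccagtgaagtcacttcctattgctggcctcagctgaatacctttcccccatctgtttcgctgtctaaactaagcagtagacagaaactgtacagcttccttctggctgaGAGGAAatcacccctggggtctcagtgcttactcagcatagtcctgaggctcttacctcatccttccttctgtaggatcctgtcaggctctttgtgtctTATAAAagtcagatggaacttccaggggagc
Csf1: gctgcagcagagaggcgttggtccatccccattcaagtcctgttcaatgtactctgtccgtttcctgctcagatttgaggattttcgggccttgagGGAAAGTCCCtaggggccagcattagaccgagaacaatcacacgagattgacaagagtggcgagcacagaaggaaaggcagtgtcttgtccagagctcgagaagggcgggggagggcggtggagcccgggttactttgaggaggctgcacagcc
Ccl17: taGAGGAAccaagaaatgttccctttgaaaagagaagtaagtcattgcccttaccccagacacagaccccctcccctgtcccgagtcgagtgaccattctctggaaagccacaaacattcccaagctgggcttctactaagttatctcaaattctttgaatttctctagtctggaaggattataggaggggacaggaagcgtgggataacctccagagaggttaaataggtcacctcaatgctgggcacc

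The motifs searched, on both strands, were GGGA and TTCC with any 2 bases between them for NF-kappaB, TTGCNNAA for C/EBP, GAGGAA for PU.1, TGANTCA for AP-1 and TATAAA for a TATA box. Il6 held an NF-kappaB match 44 to 35 bases before its start, a C/EBP match at 128 to 121 and an AP-1 match at 249 to 243. In Cxcl2 the capitals are a match at 97 to 88 that overlaps a second one on the opposite strand at 96 to 87. The Csf1 promoter held an NF-kappaB match at 154 to 145 on the opposite strand. Ccl12 held no NF-kappaB match in this window, but a PU.1 match at 130 to 125 and a TATA box at 31 to 26. Ccl17 held a PU.1 match at 248 to 243 and no other.

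Promoters were available for 46 of the 67 members. NF-kappaB matches stood in 7 of these 46 (15.2%: Ccl1, Csf1, Cxcl1, Cxcl10, Cxcl2, Cxcl3 and Il6), against 1.17% of 27025 promoters of this length. The TATA box stood in 37.0% of the members' promoters against 13.0% of all, and AP-1 in 15.2% against 6.87%. PU.1 matches were at 28.3% against 23.1%, and C/EBP matches at 6.52% against 9.55%. A match describes letters and is not a binding site, and the members were chosen as a family, so these shares are given without a test. Of the 7 genes with an NF-kappaB match, Il6, Cxcl2 and Csf1 lay above background on both arrays of a group, while Ccl1, Cxcl1 and Cxcl10 did not pass background on any array and Cxcl3 passed on 1.

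Most of the members were silent or nearly so on these arrays. Only 17 of the 67 genes (25.4%) lay above background on both arrays of at least 1 group, against 39.1% of all clusters. They were the chemokines Ccl2, Ccl3, Ccl6, Ccl7, Ccl9, Ccl25 and Cxcl2, the interleukins Il1a, Il1b, Il6, Il12a, Il15, Il16, Il18 and Il27, and Csf1 and Tnf. Another 7 (Ccl4, Ccl5, Ccl12, Ccl17, Cxcl3, Cxcl16 and Il4) passed background on single arrays. All of these but Cxcl16 passed only on array 2 of the neutrophils labelled Ezh2-null. The limit of that array, 4.97, was the lowest of the genotype arrays, against 5.74 on array 1. Ccl17, at 5.30 on array 1 and 5.26 on array 2, thus passed on the dimmer of the arrays. The remaining 43 never passed. Among those 43 were Csf2 and Csf3, which encode the granulocyte-macrophage and granulocyte colony-stimulating factors, the neutrophil chemoattractant Cxcl1, the interferon-induced chemokine Cxcl10 and the anti-inflammatory interleukin gene Il10. The number above background was 7 in each undifferentiated group, 13 in wild-type neutrophils and 15 in neutrophils labelled Ezh2-null, 11 with GSK343 and 13 with vehicle. Ccl3, Ccl9, Ccl25, Csf1, Il15 and Tnf passed in all 6 groups.

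**Figure D1:**
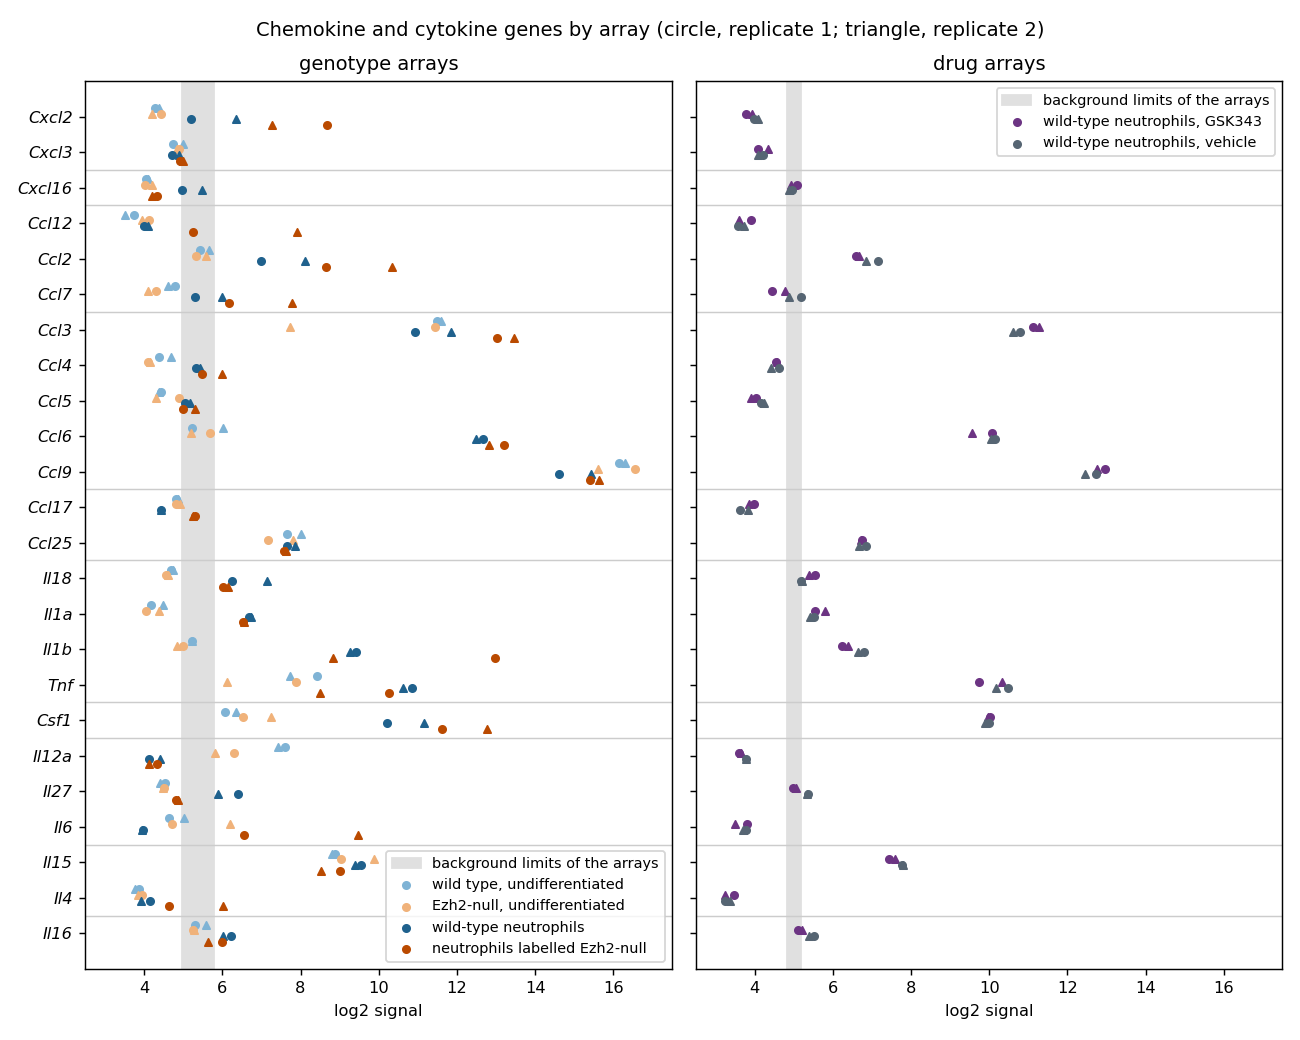
Log2 signal of the 24 members that passed background on at least 1 array, 1 row per gene with a point for each array, coloured by group, for the 8 genotype arrays (left) and the 4 drug arrays (right). Grey bands span the background limits and lines divide the roles. Ccl6 and Csf1 stand far higher on the neutrophil arrays than on the undifferentiated ones, and Il12a lower.

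Differentiation of wild-type cells was accompanied by higher signal of the interleukin 1 family, Tnf, Csf1 and Ccl6, and by loss of Il12a. With limma at an adjusted p under 0.05, 16 of the 67 members were higher (23.9%, against 13% of all clusters) and 3 were lower (4.48%, against 12.2%). In either direction 25.3% of all clusters were called. The members' median difference was 0.11, against 0.03 for all clusters. Of the 19 calls, 6 were of genes at or under background in both groups. The count fell to 9 without either undifferentiated wild-type array, and to 11 and 12 without wild-type neutrophil array 1 and array 2. In such bulk samples, fewer cells of a type and less RNA per cell cannot be told apart.

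Markers of several cell types moved with differentiation of the wild type. All 10 neutrophil markers rose (median difference 12.3) and all 8 markers of myeloid progenitors fell (median −7.38). Of 10 monocyte and macrophage markers 7 rose and none fell (median 4.42). Their summed signal was 10.51 and 10.58 (log2) before and 16.45 and 17.60 after, while C1qa, Marco and Vsig4 stayed at or under background. Of 10 mast cell and basophil markers 4 fell, and none of 6 erythroid markers was called. The part of these markers in the differences of the chemokine and interleukin genes was not tested.

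Ccl6, a CC chemokine that acts through Ccr1 in mice, was 5.23 and 6.02 in undifferentiated wild-type cells and 12.66 and 12.50 in their neutrophils. It rose 124-fold (log2 difference 6.96, SE 0.286, adjusted p = 6.06e-07), with undifferentiated array 1 under background. Its neighbour Ccl9, which binds the same receptor, was 16.15 and 16.31 before and 14.62 and 15.44 after, and fell by 1.20 (adjusted p = 0.0239). The Ccl9 arrays of the groups did not overlap, but the call was lost without either undifferentiated array or without neutrophil array 1, where the difference ranged from −1.61 to −0.79 over the arrays left out. Ccl3, a ligand of Ccr1, was 11.49 and 11.58 before and 10.94 and 11.84 after, and the groups overlapped (difference −0.14, 95% interval −2.20 to 1.91). Ccl4, a close relative of Ccl3, and Ccl5 stayed at or under background in both groups. They were called at differences of 0.83 and 0.72, but without undifferentiated array 1 Ccl4 lost its call, and Ccl5 lost its call without any 1 of the 4 arrays compared.

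Ccl2, the main Ccr2 ligand, was 5.43 (under background) and 5.67 in undifferentiated wild-type cells and 7.0 and 8.11 in neutrophils. It rose 4.02-fold (adjusted p = 0.0148), and the call was lost without either undifferentiated array or without neutrophil array 2 (largest adjusted p = 0.111). Its relatives Ccl7 and Ccl12 gave differences of 0.95 and 0.42 and did not pass the test. Cxcl2, which draws neutrophils through Cxcr2, was 4.29 and 4.38 before and 5.19 and 6.36 after, above background on 1 neutrophil array. Its rise of at least 1.26-fold (log2 difference 1.44, adjusted p = 0.0439) was lost when any of 7 arrays was left out, with differences from 0.85 without neutrophil array 2 to 2.02 without array 1. Cxcl16, the ligand of Cxcr6, was 4.05 and 4.11 before and 4.97 and 5.48 after, and rose by 1.14. Only neutrophil array 2 passed background for Cxcl16, and barely, so no fold is given. None of the Cxcr3 ligands Cxcl9, Cxcl10 and Cxcl11 passed the test (Cxcl10 difference 0.42, adjusted p = 0.168).

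In the interleukin 1 family, 4 of 5 measured members, counting Tnf, rose in wild-type cells (median difference 2.39 over the 5). Il1b, which encodes the interleukin 1 beta precursor, was 5.22 on both undifferentiated arrays and 9.41 and 9.26 in neutrophils, at least 14.9-fold higher (log2 difference 4.11, SE 0.981, adjusted p = 0.0125). The groups stood far apart, yet the call was lost without any 1 of these 4 arrays, while the difference stayed between 4.03 and 4.19. The spread is pooled over all groups, and the widest Il1b gap, 4.14, lay between the neutrophil arrays labelled Ezh2-null, outside this comparison. Il1a was 4.17 and 4.48 before and 6.69 and 6.74 after, and rose at least 2.41-fold (log2 difference 2.39, adjusted p = 7.43e-06). Il18, whose product is matured by caspase 1, was 4.69 and 4.74 before and 6.25 and 7.15 after, and rose at least 2.39-fold (adjusted p = 0.000221). Tnf was 8.42 and 7.74 before and 10.84 and 10.61 after, and rose 6.26-fold (adjusted p = 0.0131). The Tnf call was lost without undifferentiated array 2 or neutrophil array 1 (largest adjusted p = 0.0928). Il33, the remaining member, did not pass background on any array.

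Csf1, the macrophage colony-stimulating factor, was 6.06 and 6.36 in undifferentiated wild-type cells and 10.22 and 11.15 in neutrophils, and rose 22.2-fold (log2 difference 4.48, SE 0.405, adjusted p = 4.04e-05). Csf2 and Csf3 stayed under background in both groups. Il12a, the p35 subunit of interleukin 12, was 7.60 and 7.43 before and 4.13 and 4.40 after. It fell at least 4.08-fold, by 3.25 on the log2 scale (SE 0.175, adjusted p = 2.45e-06). Il27, a subunit of interleukin 27 from the same family, was 4.53 and 4.40 before and 6.39 and 5.88 after, and rose at least 1.62-fold (log2 difference 1.67, adjusted p = 5.51e-05). Il16, a ligand of CD4, rose 1.61-fold (difference 0.69, adjusted p = 0.0101), with undifferentiated array 1 under background. The Il16 call was lost without that array or neutrophil array 1. Il15, which sustains NK and memory T cells, was 8.89 and 8.80 before and 9.55 and 9.40 after, with no overlap but no call (difference 0.63, adjusted p = 0.11). The other calls at or under background were small: Ccl19, Ccl24 and Il19 were higher by 0.41, 0.41 and 0.43 and Ccl17 was lower (−0.42). The calls of Ccl6, Csf1, Il1a, Il18, Il27, Il12a and Cxcl16 were kept whichever array was left out.

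Differentiation of the Ezh2-null line gave 20 calls, 18 higher (26.9%, against 11.7% of all clusters) and 2 lower (2.99%, against 10.7%). In either direction 22.4% of clusters were called, and the members' median difference was 0.10. This comparison shares no arrays with differentiation of the wild type, but both share arrays with the genotype comparisons, so counts are not set against each other. Ccl6 went from 5.69 and 5.21 to 13.21 and 12.82, at least 176-fold higher (log2 difference 7.56). Csf1 went from 6.52 and 7.25 to 11.63 and 12.77, which is 39.8-fold (log2 difference 5.31, adjusted p = 2.44e-05). Both rises held whichever array was left out.

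Markers of other cells rose in the Ezh2-null line as well. All 6 erythroid markers rose (median difference 6.36), from summed signals of 7.62 and 7.41 to 15.65 and 16.05. Of 10 mast cell and basophil markers 8 rose and 1 fell (median 3.32), with sums of up to 18.33 before and of 19.39 and 19.42 after. Of 10 monocyte and macrophage markers 6 rose (median 1.81), with sums of 9.16 and 8.96 before and 15.27 and 15.73 after. All 10 neutrophil markers rose (median 8.84), and 7 of 8 progenitor markers fell (median −4.97). The part of these markers in the differences of the members was not tested.

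The Ccr2 ligands were led by Ccl2, which was 5.32 (under background) and 5.58 before and 8.66 and 10.34 after, a rise of 16.6-fold (adjusted p = 0.000388). Ccl7 went from 4.31 and 4.11 to 6.16 and 7.77, at least 2.66-fold (log2 difference 2.76, adjusted p = 0.00177). The Ccl7 call was lost with only the arrays compared in the limma fit (adjusted p = 0.051). Ccl12 was 4.13 and 3.94 before and 5.24 and 7.91 after, with only array 2 above background. Its rise of at least 2.02-fold (log2 difference 2.53, adjusted p = 0.0201) was lost without either undifferentiated array and shrank to 1.20 without neutrophil array 2. Ccl8 did not pass background on any array, so 3 of the 4 Ccr2 ligands rose.

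Cxcl2 was 4.43 and 4.20 before and 8.69 and 7.26 after, at least 5.35-fold higher (log2 difference 3.66, adjusted p = 0.000396). Il1b was 4.99 and 4.83 before and 12.97 and 8.83 after, at least 40.6-fold higher (log2 difference 5.99, SE 0.981, adjusted p = 0.00206), with 3.92 as the difference without neutrophil array 1. The Il1b call was lost with only the arrays compared in the limma fit (adjusted p = 0.0702). Il1a (at least 1.96-fold) and Il18 (at least 1.43-fold) rose as well. Tnf went from 7.88 and 6.11 to 10.26 and 8.51, 5.23-fold higher (adjusted p = 0.0248), and the call was lost without undifferentiated array 2 or neutrophil array 1, with 1.5 as the smallest difference. The Tnf groups did not overlap, although the arrays of each group lay more than 1 log2 unit apart.

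Ccl3 was 11.43 and 7.73 in undifferentiated Ezh2-null cells and 13.02 and 13.47 in their neutrophils. The rise was 12.7-fold (log2 difference 3.67, SE 0.909, adjusted p = 0.0176). Its size owed much to the low value of undifferentiated array 2, without which the difference was 1.82. The Ccl3 call was not lost without that array, but was lost without either neutrophil array. It was also lost with only the arrays compared, or only the genotype arrays, in the fit. Il6, a cytokine that drives the acute phase response, was 4.72 (under background) and 6.20 before and 6.56 and 9.47 after (5.87-fold, adjusted p = 0.0447). This call was lost when any of 10 arrays was left out. Ccl4 rose at least 1.12-fold (log2 difference 1.59), and Cxcl10 by 1.02 while at or under background in both groups. Il16 was called at 0.56, a call lost without any of 5 arrays. Il4, a type 2 cytokine, was called at 1.42 and went from 3.94 and 3.85 to 4.63 and 6.02, with only neutrophil array 2 above background. Without that array the Il4 difference was 0.73, and the call was lost without either undifferentiated array.

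Il12a fell in this line too, from 6.29 and 5.81 to 4.34 and 4.13, by 1.82 on the log2 scale (at least 1.62-fold, adjusted p = 9.49e-05). Il27 stayed under background, at 4.51 and 4.49 before and 4.81 and 4.86 after (difference 0.34, adjusted p = 0.183). Small calls also went to Ccl19 (0.47), Ccl17 (0.41) and Cxcl14 (−0.40). Ccl9 (difference −0.56, adjusted p = 0.291) and Il15 (−0.69, adjusted p = 0.0886) did not pass the test, though without undifferentiated array 2 Ccl9 was called at −1.03 and without array 1 Il15 at −1.11.

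**Figure D2:**
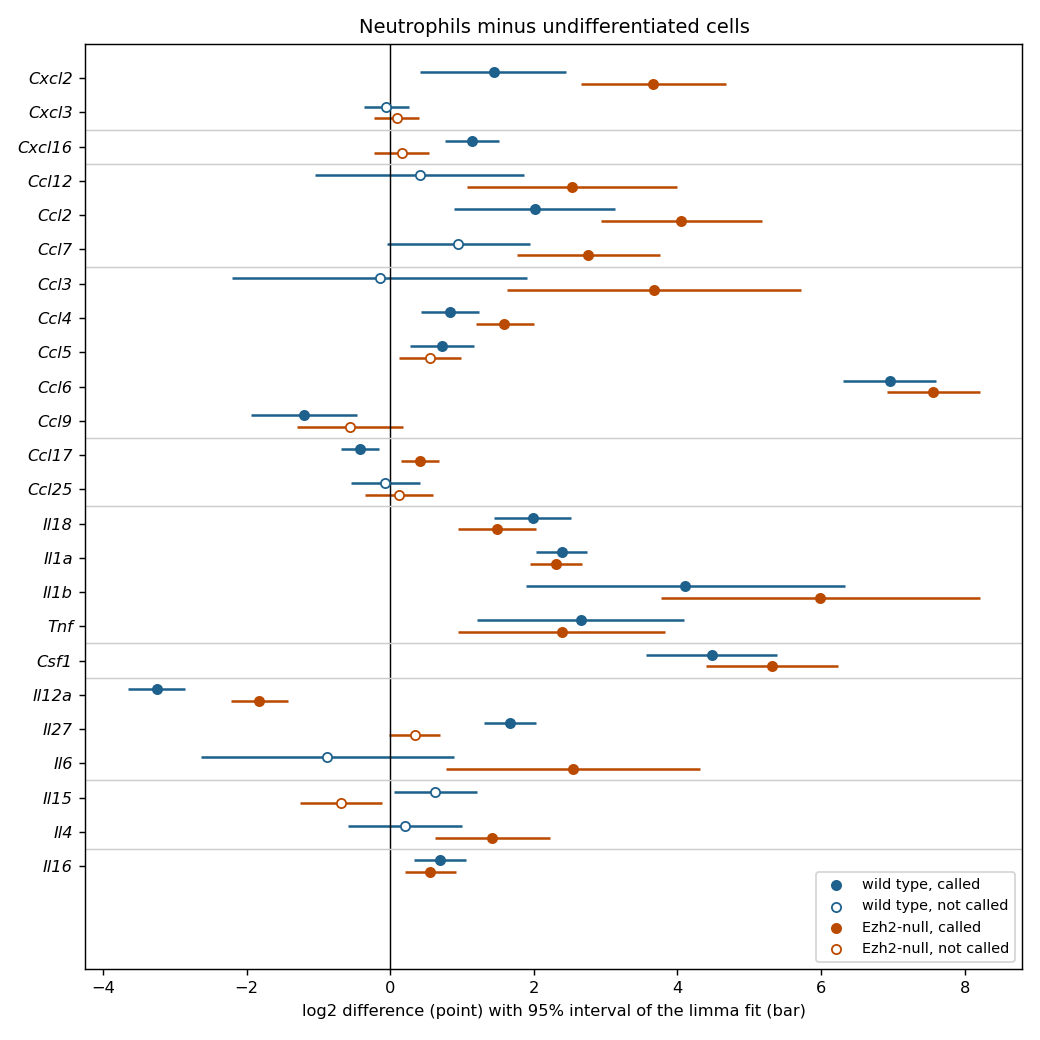
Log2 difference of neutrophils minus undifferentiated cells for the 24 members that passed background on at least 1 array, in wild-type (blue) and Ezh2-null (orange) cells, with 95% intervals of the limma fit as bars. Filled points were called at an adjusted p under 0.05: Ccl6 lies farthest to the right in both, at 6.96 and 7.56, and Il12a farthest to the left, at −3.25 and −1.82.

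Between neutrophils, the inflammatory genes Il6, Cxcl2, Ccl2, Ccl12 and Csf1, together with Il4 and Ccl17, were higher in those labelled Ezh2-null, and Il27 and Cxcl16 were lower. That is 7 members higher (10.4%, against 6.75% of clusters) and 2 lower (2.99%, against 5.06%). In either direction 9 of 67 members were called, 13.4%, against 11.8% of all clusters, so the share of members called was near the background. The members' median was −0.03, the same as that of all clusters. With only the 4 arrays compared in the fit, Il27 and Ccl17 kept their calls and Ccl3 gained a call. Il6, Cxcl2, Ccl2, Ccl12, Csf1, Il4 and Cxcl16 lost theirs in that fit. The count fell to 4 without wild-type neutrophil array 1 and to 5 without any 1 of 6 arrays of other groups (both undifferentiated wild-type, both GSK343 and both vehicle arrays), and was 3 when only the 4 arrays compared entered the fit.

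Il6 was 3.96 and 3.94 in wild-type neutrophils, under background, and 6.56 and 9.47 in those labelled Ezh2-null. It was at least 5.75-fold higher (log2 difference 4.06, SE 0.783, adjusted p = 0.00916). Both arrays stood above both wild-type arrays, but far apart from each other, and the difference was 2.61 without the higher of them. Without wild-type neutrophil array 1 the adjusted p was 0.0509.

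Cxcl2 was 5.19 and 6.36 in wild-type neutrophils and 8.69 and 7.26 in those labelled Ezh2-null, 4.60-fold higher (log2 difference 2.20, SE 0.450, adjusted p = 0.0120). The groups did not overlap, and the call was lost without wild-type array 1 or without array 1 labelled Ezh2-null (difference 1.49 without the latter, largest adjusted p = 0.0823). The other Cxcr2 ligands Cxcl1, Cxcl3, Cxcl5 and Cxcl15 did not pass the test.

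Ccl2 was 7.0 and 8.11 against 8.66 and 10.34, and 3.85-fold higher (log2 difference 1.94, SE 0.496, adjusted p = 0.0338). Ccl12 was 4.01 and 4.09 against 5.24 and 7.91, at least 2.11-fold higher (log2 difference 2.52, adjusted p = 0.0344). Ccl7 was 5.31 and 5.98 against 6.16 and 7.77 and did not pass the test (difference 1.32, 95% interval 0.33 to 2.31, adjusted p = 0.0963). For all 3 of these Ccr2 ligands the arrays labelled Ezh2-null stood above the wild type, with array 2 well above array 1. The Ccl2 and Ccl12 calls were each lost in 8 of the 12 fits that left out 1 array, with differences down to 1.11 and 1.18 without array 2 labelled Ezh2-null.

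Csf1 was 10.22 and 11.15 against 11.63 and 12.77, 2.86-fold higher (log2 difference 1.52, SE 0.405, adjusted p = 0.0415), and lost its call in 8 of the 12 fits that left out 1 array (0.95 without array 2 labelled Ezh2-null). Il4 was called at 1.29 (adjusted p = 0.0446) and lost its call in 9 of 12, with 0.60 without that same array. Ccl17, which draws Ccr4-bearing T cells, was 4.43 on both wild-type arrays and 5.30 and 5.26 on those labelled Ezh2-null (difference 0.85, adjusted p = 0.00155). It kept its call whichever array was left out, yet passed background on only 1 array, so no fold is given.

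Il27 was 6.39 and 5.88 in wild-type neutrophils and 4.81 and 4.86, under background, in those labelled Ezh2-null. It was at least 1.72-fold higher in the wild type (log2 difference −1.30, SE 0.160, adjusted p = 0.000856) and kept this call whichever array was left out. Cxcl16 was 4.97 and 5.48 in the wild type and 4.34 and 4.21 in those labelled Ezh2-null (difference −0.95, adjusted p = 0.00586), with only wild-type array 2 above background. The Cxcl16 call was lost without array 2 labelled Ezh2-null (adjusted p = 0.0519).

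Il1b, Tnf and Ccl3 did not pass the test between neutrophils. Il1b was 9.41 and 9.26 in wild-type neutrophils and 12.97 and 8.83 in those labelled Ezh2-null, so the groups overlapped (difference 1.57, 95% interval −0.65 to 3.79). Without array 2 of the latter group, Il1b was called at 3.64 (adjusted p = 1.3e-05). Tnf was 10.84 and 10.61 against 10.26 and 8.51, lower on both arrays but not called (difference −1.34, 95% interval −2.78 to 0.10, adjusted p = 0.262). Ccl3 was 10.94 and 11.84 against 13.02 and 13.47 without overlap and was not called either (difference 1.86, 95% interval −0.20 to 3.91, adjusted p = 0.278), but was called at adjusted p = 0.00253 without either undifferentiated Ezh2-null array, whose gap in Ccl3 widens the spread. Il15 (difference −0.72, adjusted p = 0.117) and Il18 (−0.62, adjusted p = 0.154) had intervals below 0, and Il18 was called at −1.07 without wild-type neutrophil array 1. Ccl6 (0.44), Ccl9 (0.49), Il1a (−0.18), Ccl4 (0.36) and Cxcl10 (0.53, at or under background) did not pass the test.

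Markers of other cells moved with this comparison. All 10 mast cell and basophil markers were higher in the neutrophils labelled Ezh2-null, where 9 passed background on both arrays and Tpsab1 did not pass on either. Their summed signal was 19.39 and 19.42 (log2) there, 13.64 and 12.08 in wild-type neutrophils, and 18.81 and 18.90 in undifferentiated wild-type cells. All 6 erythroid markers measured were higher too, with summed signals of 15.65 and 16.05 against 7.37 and 7.36, where none passed background. Of 10 monocyte and macrophage markers, 4 were lower and none higher, with sums of 15.27 and 15.73 against 16.45 and 17.60, and C1qa, C1qc and Vsig4 did not pass background in the lower group. Of 8 myeloid progenitor markers, 4 were higher and none lower (median difference 1.58), with sums of 13.84 and 13.23 against 10.53 and 10.63. Among them Mpo, the myeloperoxidase gene, was 12.03 and 9.66 against 7.34 and 7.40. Of the 10 neutrophil markers, 3 were lower and none higher (median −0.66), with sums of 20.68 and 20.19 against 21.37 and 20.79. None of 8 T and NK cell markers was called, and none passed background on both arrays of either group. Cd3d and Nkg7 passed on array 2 labelled Ezh2-null, whose limit of 4.97 was the lowest of the genotype arrays (5.74 on array 1). Their signals on arrays 1 and 2 were nearly equal, at 5.18 and 5.24 for Cd3d and 5.19 and 5.22 for Nkg7. Cd3d was 5.33 and 5.24 in wild-type neutrophils, under the limits there. The dendritic cell, B cell and stromal lists had 1 marker called higher each, of 6, 4 and 4 measured. The part of these markers in the chemokine and interleukin differences was not tested.

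Undifferentiated cells differed between genotypes in 1 member, Il12a (1.49% of members, against 2.99% of clusters called in either direction and 1.34% lower). It was 7.60 and 7.43 in wild-type cells and 6.29 and 5.81 in Ezh2-null cells, 2.77-fold lower (log2 difference −1.47, SE 0.175, adjusted p = 0.00185). The groups did not overlap, and the call was kept whichever array was left out, between −1.71 and −1.23, but not when only the 4 arrays compared entered the fit (adjusted p = 0.117). Without Ezh2-null array 1 the count rose to 3, with Ccl3 at −3.81 (adjusted p = 0.000443) and Il15 at 1.03 (adjusted p = 0.0259) added. Over both arrays these genes were not called: Ccl3 differed by −1.96 (adjusted p = 0.438), Il15 by 0.60 (0.368), Tnf by −1.08 (0.598), Csf1 by 0.68 (0.604) and Il6 by 0.63 (0.879). Of the marker lists, 2 of 8 progenitor markers were lower, and of the 10 neutrophil markers 2 were higher and 1 lower. Of 10 mast cell and basophil markers 1 was higher and 1 lower. The monocyte and macrophage list and the T and NK cell list had 1 lower each, and the B cell list had 1 higher. No marker was called in the dendritic cell, erythroid and stromal lists. The part of these markers was not tested.

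GSK343 gave 0 calls among the 67 members with limma, as did every alternative fit, and 0 members at an unadjusted p under 0.05. Of all clusters 0.00152% were called, which is 1 of 65956 (the mast cell protease gene Cpa3), and 6.01% had an unadjusted p under 0.05. The members' differences lay between −0.41 (Il1b) and 0.49 (Ccl3). Il1b was 6.24 and 6.38 with GSK343 and 6.80 and 6.65 with vehicle, without overlap (95% interval of the difference −2.63 to 1.81). Ccl3 was 11.11 and 11.27 against 10.78 and 10.62 (interval −1.56 to 2.55). These intervals are wide because the spread is pooled over all groups, and they do not show that the groups were alike.

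The 9 genes that differed between the genotypes in neutrophils were measured under GSK343 too. Il6 was 3.80 and 3.51 with GSK343 and 3.77 and 3.71 with vehicle, under background on all 4 arrays. Cxcl2 was 3.79 and 3.94 against 3.99 and 4.08, also under background. Ccl12 (3.92 and 3.59 against 3.58 and 3.74), Il4 (3.48 and 3.24 against 3.24 and 3.37) and Ccl17 (3.98 and 3.85 against 3.64 and 3.84) were under background as well. Cxcl16 was 5.09 and 4.93 against 4.97 and 4.88 (difference 0.08, interval −0.30 to 0.46), above background on 1 GSK343 array. Csf1 was 10.01 and 9.97 against 9.99 and 9.89 (difference 0.05, interval −0.87 to 0.96). Ccl2 was 6.60 and 6.68 against 7.17 and 6.85 (difference −0.37, interval −1.49 to 0.75). Il27 was 4.99 and 5.06 against 5.37 and 5.33 (difference −0.32), the smallest adjusted p of the members at 0.876. Mast cell and basophil markers summed to 15.12 and 15.07 with GSK343 and 13.63 and 13.59 with vehicle, with 1 of 10 called higher.

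Whether the genotype difference in neutrophils differed from the GSK343 difference was tested as a difference of differences, which shares no arrays between its arms. Of the members 0 were called by limma, against 3.30% of clusters, and 11 had an unadjusted p under 0.05, against 13.9% of clusters. The smallest adjusted p was 0.0533 for Cxcl16 (−1.03), followed by 0.0549 for Il27 (−0.98). Il6 differed by 4.15 (adjusted p = 0.0944) and Cxcl2 by 2.37 (0.0966). Tested among single-symbol clusters only, Ccl17, Cxcl16 and Il27 passed, and among clusters above background only, Il6 (adjusted p = 0.0436) and Cxcl2 (0.0487) passed. Il6 and Cxcl2 entered the latter set only through the neutrophils labelled Ezh2-null, where they were high, so their passing adds no support for a difference. Leaving out array 2 of that group or either wild-type neutrophil array gave 2 calls, and leaving out array 1 labelled Ezh2-null gave 5, among them Il6 at 5.60 and Ccl12 at 3.76.

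**Figure D3:**
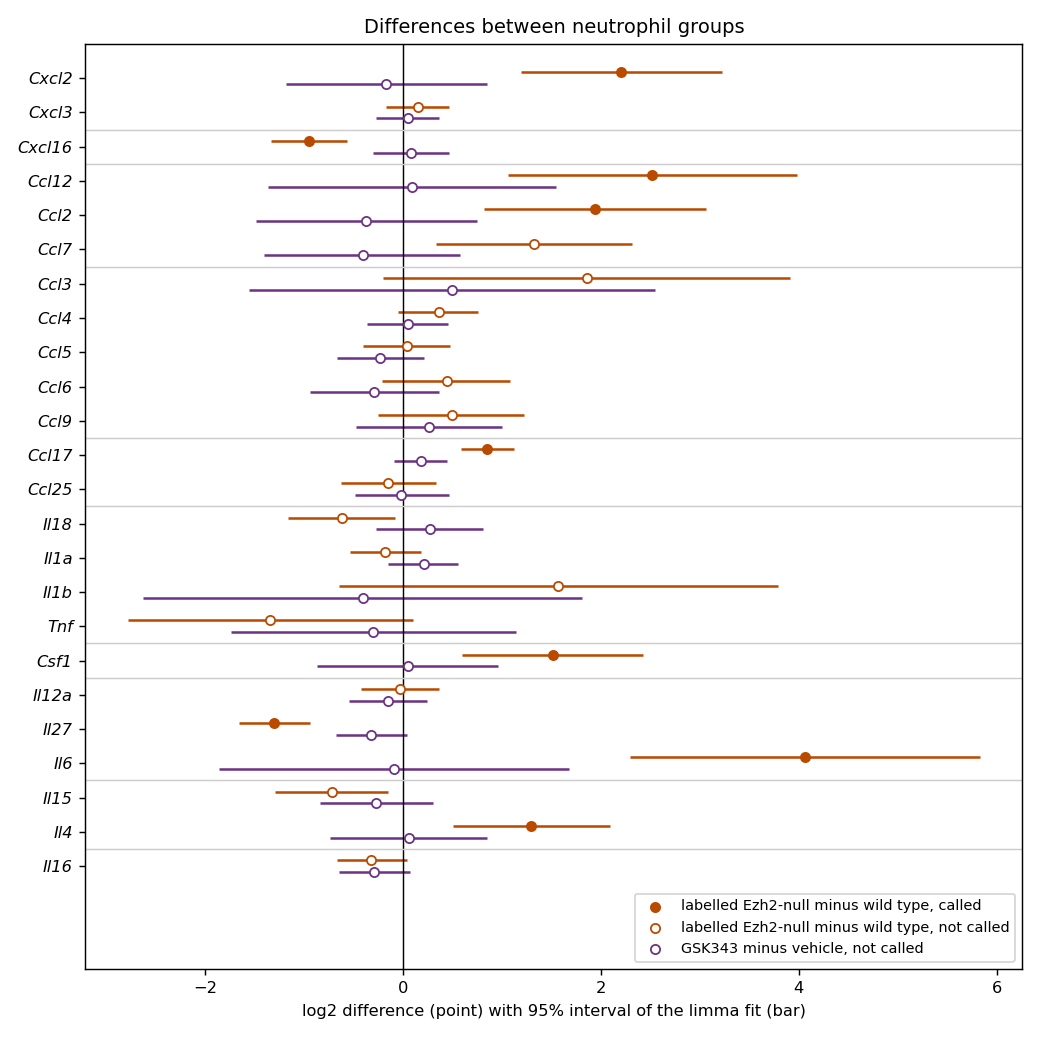
Log2 differences between neutrophil groups for the 24 members that passed background on at least 1 array: labelled Ezh2-null minus wild type (orange) and GSK343 minus vehicle (purple), with 95% intervals of the limma fit as bars. Filled points were called: Il6 stands at 4.06 and Il27 at −1.30 for genotype, while the GSK343 points stay between −0.41 and 0.49.

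The genotype difference itself was called as changing with stage for Il12a, Il27 and Ccl17, which is 3 of 67 members (4.48%, against 4.41% of clusters). The share of members called was thus near the background. With only the 8 genotype arrays in the fit, 0 members were called. Il12a was lower in Ezh2-null cells before differentiation only, when it was above background (interaction 1.43, SE 0.248, adjusted p = 0.0127). Il27, under background in both undifferentiated groups, differed by −1.33 (SE 0.226, adjusted p = 0.0116) and Ccl17 by 0.83 (SE 0.165, adjusted p = 0.0239). The count ran from 1 without either undifferentiated wild-type array to 7 without array 1 labelled Ezh2-null, and was 5 without undifferentiated Ezh2-null array 1. For Il6 the interaction was 3.43 (adjusted p = 0.145), for Cxcl2 2.23 (0.0983) and for Ccl3 3.81 (0.166), so a difference between stages was not called for these. In the same test 8 of 10 mast cell and basophil markers and all 6 erythroid markers were called higher.

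Arrays of 1 group disagreed on these genes more often in some groups than in others. Of the 15 members above background on both neutrophil arrays labelled Ezh2-null, 7 (46.7%) differed by more than 1 log2 unit between them, against 3.50% of all clusters above background on both. These were Ccl2, Ccl7, Csf1, Cxcl2, Il1b, Il6 and Tnf. Il1b, Tnf and Cxcl2 were higher on array 1, while Il6, Ccl2, Ccl7 and Csf1 were higher on array 2, as were Ccl12 and Il4. In undifferentiated Ezh2-null cells 2 of 7 members (Ccl3 and Tnf, 28.6%) did, against 15.4% of clusters, both shares again over those above background on both arrays. In wild-type neutrophils it was 1 of 13, Ccl2 (7.69%, against 5.52%), and in the other 3 groups none, against 1.60% of clusters in undifferentiated wild-type cells, 2.34% with GSK343 and 1.01% with vehicle. The source of the gaps was not tested.

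**Figure D4:**
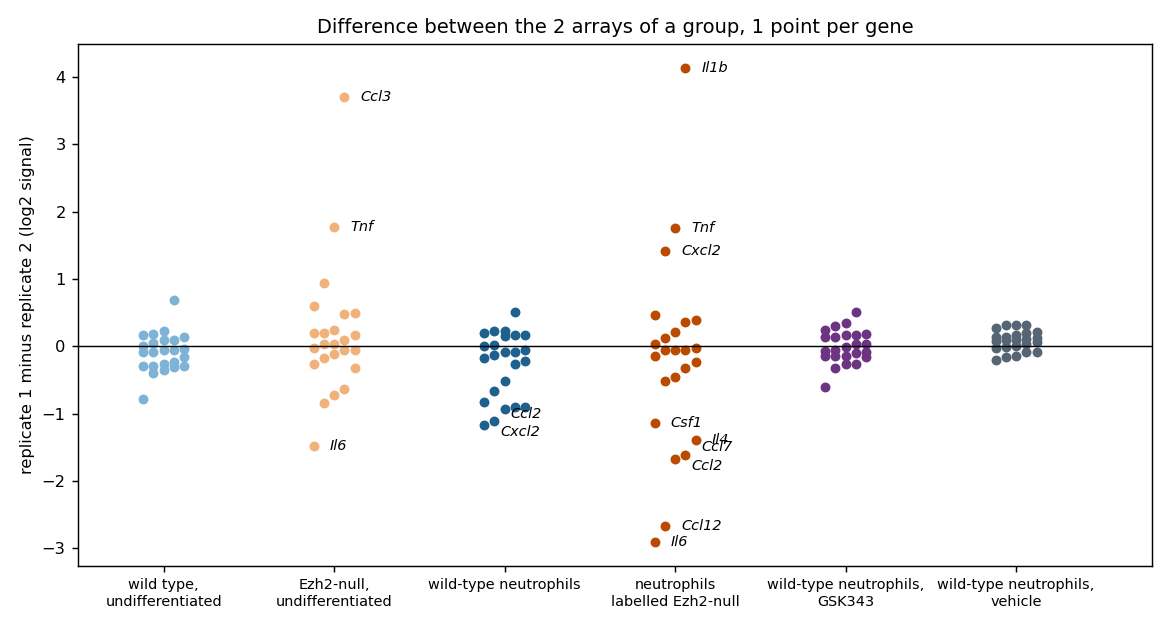
Difference between array 1 and array 2 of each group in log2 signal, 1 point per member for the 24 members that passed background on at least 1 array. Members more than 1 log2 unit apart are named: in neutrophils labelled Ezh2-null, Il1b, Tnf and Cxcl2 lie above 0 and Csf1, Il4, Ccl7, Ccl2, Ccl12 and Il6 below it.

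Many members lie side by side in the genome. In the RefSeq order of protein-coding genes, Ccl2, Ccl7, Ccl11, Ccl12, Ccl8 and Ccl1 follow each other on chromosome 11, and Ccl5, Ccl9, Ccl6, Ccl3 and Ccl4 follow each other 26 genes on. In the neutrophils labelled Ezh2-null, Ccl2 and Ccl7 passed background on both arrays and Ccl12 on array 2, while Ccl11 (4.43 and 4.53), Ccl8 (3.82 and 3.76) and Ccl1 (3.70 and 3.80), between and beside them, stayed under it. Ccl6 rose on differentiation in both lines while Ccl9, next to it, fell in the wild type. On chromosome 5, Cxcl5, Cxcl3, Cxcl15, Cxcl1 and Cxcl2 stand in 1 run with Ppbp and Pf4. Of these 5 members only Cxcl2 passed background on both arrays of a group.

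**Figure D5:**
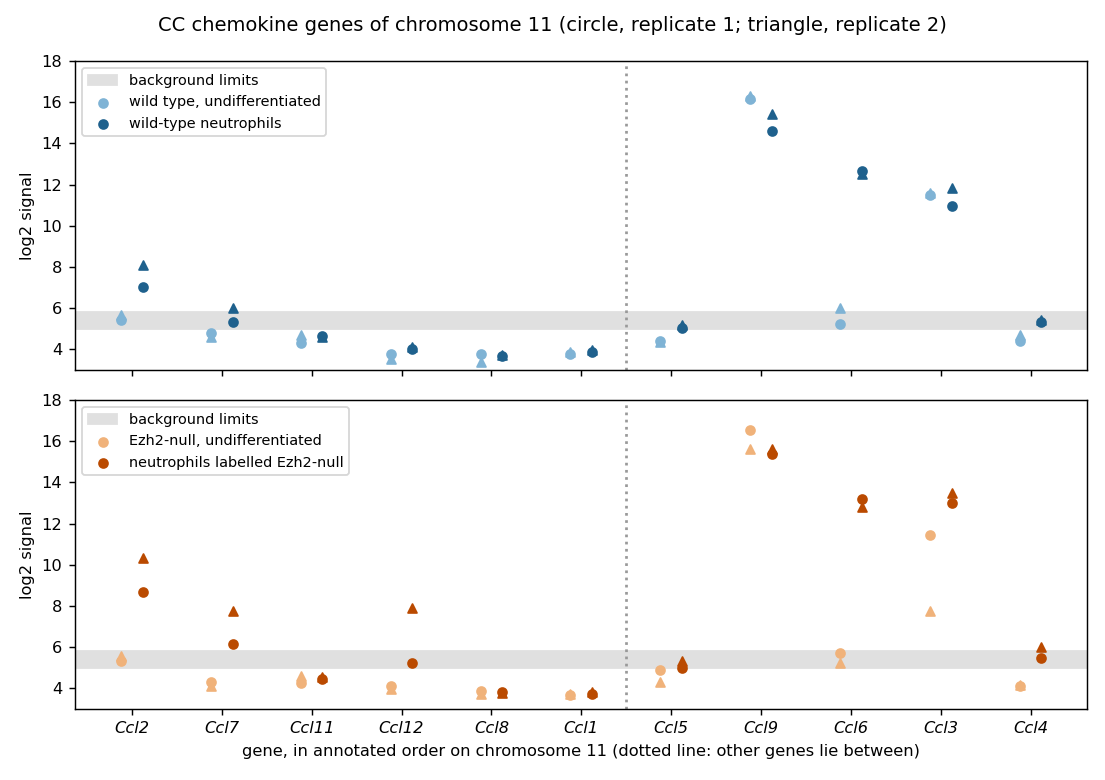
Log2 signal of the 11 Ccl genes of chromosome 11 in gene order, with a point for each array of the 8 genotype arrays. Signals are comparable between arrays of a gene, not between genes. Ccl2, Ccl7 and Ccl12 are higher in neutrophils labelled Ezh2-null than in undifferentiated Ezh2-null cells, with Ccl12 above background on array 2 only. Ccl2 is also higher in wild-type neutrophils than in undifferentiated wild-type cells. Ccl11, Ccl8 and Ccl1 stay level across the groups.

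The receptors of these ligands were measured beside them. Of 23 chemokine receptors listed, 20 had a cluster of their own. Over all clusters, 13% were higher and 12.2% lower on wild-type differentiation, 11.7% and 10.7% on Ezh2-null differentiation, and 6.75% and 5.06% between neutrophils, and the counts of the receptor, NF-kappaB and processing lists stand beside these shares. On wild-type differentiation 7 chemokine receptors rose and none fell: Ccr1, the receptor of Ccl3, Ccl6 and Ccl9, by 8.15 (284-fold), Cxcr2, the receptor of Cxcl2, by 7.47 (177-fold), and the fractalkine receptor Cx3cr1 by 3.74. In the Ezh2-null line 9 rose, led by Ccr1 (7.88), Cxcr2 (7.24) and the Ccl2 receptor Ccr2 (3.43). Ccr2 was 12.48 and 13.01 in undifferentiated wild-type cells and 6.79 and 5.28 (under background) in undifferentiated Ezh2-null cells, a drop of 105-fold (log2 difference −6.71, adjusted p = 0.00364). Cxcr4, the receptor of Cxcl12, fell there too (−2.16, adjusted p = 0.0199). Between neutrophils Ccr3 (1.00) and Ackr1 (0.60) were called higher, and neither was above background on both arrays. Ccr2 was 11.15 and 12.55 in wild-type neutrophils and 7.91 and 11.03 in those labelled Ezh2-null (adjusted p = 0.145).

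Receptors of interleukins, Tnf and colony-stimulating factors (29 of 33 listed were measured) gave 17 rises and 2 falls on wild-type differentiation, with a median of 1.13. The largest were the Csf1 receptor Csf1r (9.41, 682-fold), Csf3r (6.64) and Csf2ra (6.48), while Il1rap and Il12rb1 fell. In the Ezh2-null line 17 rose and 2 fell as well, led by Csf1r (7.22), Il7r (6.76) and Tnfrsf1b (5.33). Between neutrophils 5 were higher and 7 lower in those labelled Ezh2-null. Il1r2, a decoy receptor for interleukin 1, was 12.1-fold lower (log2 difference −3.59), Il6ra 4.66-fold (−2.22) and Csf1r 3.72-fold (−1.89). Il2ra, Il9r and Il18r1 were higher by 2.04, 2.02 and 2.02. In undifferentiated cells, where 2.99% of clusters were called in either direction, 4 were higher, led by Il1rap (2.41), and Tnfrsf1b was lower (−1.61).

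NF-kappaB genes (14 of 16 listed) rose in 13 cases on wild-type differentiation and in 10 in the Ezh2-null line. The inhibitor genes Nfkbia (3.93 and 4.10) and Nfkbid (2.35 and 2.76) were among the 3 largest in both. Between neutrophils Rel (−1.30), Nfkbie (−1.03) and Ikbkb (−0.96) were among 4 lower genes, and the deubiquitinase gene Tnfaip3 was higher (1.14, adjusted p = 0.0115). Of 8 genes that process or block cytokines, 6 rose in wild-type cells, led by the inflammasome sensor Nlrp3 (6.50, 90.5-fold), the interleukin 1 receptor antagonist Il1rn (5.85, at least 49.8-fold) and Casp4 (3.23). In the neutrophils labelled Ezh2-null 5 of the 8 were lower, where 5.06% of all clusters were, among them Casp1, whose product cuts the precursors of interleukins 1 beta and 18 (−3.07, 8.39-fold), Casp4 (−2.23) and Pycard (−1.97). Casp1 was also lower in undifferentiated Ezh2-null cells (−3.03, adjusted p = 0.00467).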

How the data were processed

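Expression in mouse HoxB8-ER cells was measured on Affymetrix Mouse Transcriptome Array 1.0 from 250 ng of RNA, per the labels' protocols. The authors deposited log2 signals in 1 table of 12 arrays, 2 per group. The submitters' processing notes name Affymetrix Expression Console and Transcriptome Analysis Console, while background correction, summarisation method and genome build were not given in the sources used here. The table held 72688 entries, of which 6732 control probe sets were left out, and 65956 clusters were tested. Genes were named from 30604 clusters with 1 symbol in the annotation, updated by Entrez ID through RefSeq (GRCm38.p6).

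All 12 arrays were fitted as 6 group means with limma 3.58.1 in R 4.3.3 (lmFit and eBayes, 6 residual and 3.06 prior degrees of freedom), and a member was called at a Benjamini-Hochberg adjusted p under 0.05 over all clusters. The test was run on simulated data first. SEs and 95% intervals come from this fit, and the number of arrays limits the precision. "At least" marks a fold against a group at or under background on both arrays: in place of the dimmer group's own mean, its arrays entered at the antigenomic limit wherever their signal lay below it.

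Members and lists were chosen with earlier results of these data known. Named in full were called members above background on both arrays of the brighter group (up to 12 each way) and Tnf, Il1b, Il6, Cxcl2, Cxcl10, Ccl3, Ccl4, Csf1, Csf2 and Csf3, and of other role lists up to 4 examples. For the pathway lists the 3 largest called changes each way were named. Alternatives were fewer arrays in the fit, each array left out, a replicate block, quantile normalisation, median centring, filters on background or annotation, another background limit, another choice of cluster and eBayes with trend. The replicate numbers are shared by all groups, but array 1 minus array 2 correlated between groups at only −0.252 to 0.185 across clusters over 15 pairs of groups, so the numbers were not taken to pair the arrays.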

Additional observations from a re-analysis of the deposited data

Results flagged for a closer look

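Il12a, Il27 and Ccl17 are set apart because the genotype difference was tested to differ between undifferentiated cells and neutrophils. For Il12a the interaction was 1.43 on the log2 scale (adjusted p = 0.0127): the difference was −1.47 before differentiation and the gene was under background in both groups after it. Il27 gave −1.33 (adjusted p = 0.0116), with a difference of −1.30 between neutrophils and signals under background in both undifferentiated groups. Ccl17 gave 0.83 (adjusted p = 0.0239), with signals under background on all arrays but 1 and its call lost in 6 of the 12 fits that left out 1 array. The Il12a call was lost without undifferentiated wild-type array 1 (adjusted p = 0.0561) and the Il27 call without array 2 of the same group (0.0556).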

How the results depend on the processing

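No called value changed sign under any alternative run, and of 1021 refits of the called gene results 832 kept the call. Neither figure is a strong check. Where the arrays of 2 groups do not overlap, leaving out 1 array cannot change the sign of their difference. Leaving out an array outside the comparison alters the spread only, and the difference stays the same. Counts of members called moved with the arrays in the fit and with the clusters tested. With only the arrays compared in the fit, the counts were 16 for wild-type differentiation, 9 for differentiation of the Ezh2-null line, 0 for genotype in undifferentiated cells, 3 for genotype in neutrophils and 0 for the interaction with stage. With only the 8 genotype arrays they were 14 for wild-type and 12 for Ezh2-null differentiation, 5 for genotype in neutrophils and 0 for the interaction. Restricting the test to clusters above background gave 12 for wild-type and 13 for Ezh2-null differentiation, since fewer members are then tested. It gave 2 for genotype against drug, Il6 and Cxcl2, which entered that set only through the neutrophils labelled Ezh2-null. Testing single-symbol clusters only gave 3 for genotype against drug. Leaving out 1 array gave 9 to 20 calls for wild-type differentiation, 14 to 18 for Ezh2-null differentiation, 1 to 3 for genotype in undifferentiated cells, 4 to 11 in neutrophils, 1 to 7 for the interaction and 0 to 5 for genotype against drug. GSK343 stayed at 0 throughout. With the replicate number as a block the counts were 17, 19, 1, 8, 3, 0 and 0 for wild-type differentiation, Ezh2-null differentiation, genotype in undifferentiated cells, genotype in neutrophils, the interaction, GSK343 and genotype against drug, so the block moved no count by over 1.5 times. With the median of the negative controls as the limit, 15 members rather than 17 lay above background. The cause of these changes was not tested beyond the smaller number of arrays or members in the fits.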
